A study of Mus musculus with 6 samples.

Results

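Bone morphogenetic proteins (BMPs) and growth and differentiation factors (GDFs) are secreted ligands, and the Id genes are among the best known genes that many BMPs switch on. The genes described here are 6 ligands, Gdf2, Gdf10, Bmp2, Bmp4, Bmp6 and Bmp7, and the 4 Id genes, Id1, Id2, Id3 and Id4. They were chosen by name, as every probe on the array whose gene name is one of these 10 symbols. All 10 genes were on the array, with 11 probes among 55681 in all and with 10 genes among 24082 that carry a symbol. Bmp4 had 2 probes and each of the others had 1.

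Expression was measured in 6 samples of cells sorted with magnetic beads from the cerebellum of newborn wild-type mice. In 3 samples the cells were enriched for those with ACSA-2, an epitope of the sodium pump subunit encoded by Atp1b2, and the glutamate transporter GLAST, encoded by Slc1a3 (A+/G+). The other 3 were enriched for cells with GLAST but without ACSA-2 (A-/G+). By the paper's flow cytometry, other cells remained in both fractions. Cerebella of either sex were pooled, each sample held 50000 cells, and no animal had been treated. The sample labels give strain CD1 and postnatal days 1 to 3, whereas the paper's methods give a C57BL/6 background for wild-type mice and days 0 and 1. The A+/G+ cells were selected directly with ACSA-2 beads, without a selection for GLAST. The A-/G+ cells were what remained after depletion of cells carrying L1CAM, ACSA-2, CD45, PSA-NCAM or Ter119, followed by selection for GLAST, so that the fractions also differ in the antigens removed. RNA was amplified, labeled with the dye Cy3 and hybridized, 1 array per sample.

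On the route that many BMPs use, a ligand dimer binds paired type I and type II receptors on a cell. The type I receptor then phosphorylates Smad1, Smad5 or Smad9, which enter the nucleus with Smad4. Secreted antagonists such as noggin trap ligands before they reach the receptor. Id proteins are helix-loop-helix proteins without a DNA-binding region. They pair with E proteins and so keep proneural and other bHLH factors from binding DNA. In the developing cerebellum BMPs are known from the roof plate, the choroid plexus and the meninges, Gdf10 (BMP3b) is a marker of Bergmann glia, and Gdf2 (BMP9) is known mainly as a circulating ligand made in the liver that acts on endothelium.

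Promoter sequences were available for 7 of the 10 genes in the RefSeq table of GRCm38.p6. Those of Gdf10 and Gdf2 are shown because they are neighboring ligand genes that were both higher in A-/G+, and those of Id2 and Id4 because these Id genes gave different values. Each runs 5′ to 3′ from 250 bases before the start of the gene to 30 bases after it, and capitals mark GGCGCC, a GC-rich element of BMP-responsive promoters, or TATAAA, the TATA box (TTTATA on the opposite strand), searched on both strands.
Gdf10 (chr14:33923337-33923616, plus strand): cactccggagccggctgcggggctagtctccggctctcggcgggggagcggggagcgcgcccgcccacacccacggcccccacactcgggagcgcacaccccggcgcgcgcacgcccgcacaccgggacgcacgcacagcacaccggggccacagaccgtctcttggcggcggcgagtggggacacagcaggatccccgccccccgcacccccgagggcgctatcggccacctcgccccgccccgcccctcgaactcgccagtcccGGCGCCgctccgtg
Gdf2 (chr14:33940789-33941068, plus strand): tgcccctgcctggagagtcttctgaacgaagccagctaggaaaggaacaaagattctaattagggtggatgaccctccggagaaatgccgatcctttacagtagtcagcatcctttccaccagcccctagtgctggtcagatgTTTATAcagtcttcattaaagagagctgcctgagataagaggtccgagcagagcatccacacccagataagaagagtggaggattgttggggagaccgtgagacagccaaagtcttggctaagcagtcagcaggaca
Id2 (chr12:25096063-25096342, minus strand): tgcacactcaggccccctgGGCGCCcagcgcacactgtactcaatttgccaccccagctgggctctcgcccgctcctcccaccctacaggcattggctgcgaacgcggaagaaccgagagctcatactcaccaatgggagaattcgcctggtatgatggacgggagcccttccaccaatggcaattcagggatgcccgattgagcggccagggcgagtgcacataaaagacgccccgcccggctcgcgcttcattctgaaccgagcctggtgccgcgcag
Id4 (chr13:48260866-48261145, plus strand): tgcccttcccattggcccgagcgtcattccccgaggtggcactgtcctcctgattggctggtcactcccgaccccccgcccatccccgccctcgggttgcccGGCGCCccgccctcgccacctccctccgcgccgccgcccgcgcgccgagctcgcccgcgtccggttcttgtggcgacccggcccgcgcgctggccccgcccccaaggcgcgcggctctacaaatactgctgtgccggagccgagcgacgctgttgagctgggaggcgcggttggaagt
The neighboring promoters of Gdf10 and Gdf2 had little in common in base composition. Over the full window of 300 bases, 77.3% of the Gdf10 bases but 51% of the Gdf2 bases were G or C, beside a median of 52.7% over all 32851 promoters in the table. The letters GGCGCC occurred in the windows of Gdf10, Id2 and Id4, at bases 17, -231 and -148 from the start of the gene, and not in those of Gdf2, Bmp4, Bmp6 and Id3. They occurred in 11.9% of all promoters. TATAAA was found for Gdf2 alone among the 7, at base -107 on the opposite strand, and in 13.6% of all promoters. The E-box letters CANNTG occurred in the windows of Gdf2, Bmp4, Bmp6 and Id2, sharing no base with the other motifs there, and in 72.3% of all promoters. These matches describe letters in a window and were not tested as binding sites.

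Values are log2 signals after quantile normalization. A difference subtracts the A+/G+ mean from the A-/G+ mean, in log2 units, and has its standard error (SE) beside it. Adjusted p-values are from limma with Benjamini-Hochberg adjustment over all probes, 3 arrays against 3. A gene counted as past both limits when its adjusted p was at most 0.05 and its medians were at least 4-fold apart, the size limit of the paper's methods. An exact permutation test over 3 against 3 arrays cannot give a two-sided p below 0.1, which was its value for all members whose fractions did not overlap. Slide 1 held the A+/G+ arrays and slide 2 the A-/G+ arrays, and fraction and slide cannot be told apart. The A-/G+ arrays were dimmer, with 18336 to 24730 probes well above background against 26469 to 26654, and with a 75th percentile of the intensity of 56.6 to 251 against 332 to 334. Atp1b2 was lower in A-/G+ by 2.16 (adjusted p = 0.00725), whereas Slc1a3 was higher by 1.19 without passing the test (adjusted p = 0.0733). In bulk samples, fewer cells of a type and less RNA per cell cannot be told apart.

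The ligands divided between the fractions. Gdf2 and Gdf10 were higher in A-/G+, Bmp2 and Bmp6 were higher in A+/G+, and Bmp4 and Bmp7 had lower means in A-/G+ without passing the test. Of the 6 ligands, 2 passed the adjusted p as higher in A-/G+, where 5.12% of all genes did, and 2 as higher in A+/G+, where 7.48% did. Gdf2 and Gdf10 also passed the size limit, which 0.44% of genes did in that direction, and so did Bmp6 in the other, where 2.62% of genes did. The paper had already reported Gdf2 and Gdf10 as higher in A-/G+ from these same arrays. The shares of all genes are therefore no independent measure for them. For all 6 ligands the fractions did not overlap. For 2 of them the A-/G+ arrays were all the higher ones, as for 23.3% of all genes, and for 4 the A+/G+ arrays were, as for 19.1%. The median difference of the 6 ligands was -0.74, beside 0.03 over all genes.

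**Figure D1:**
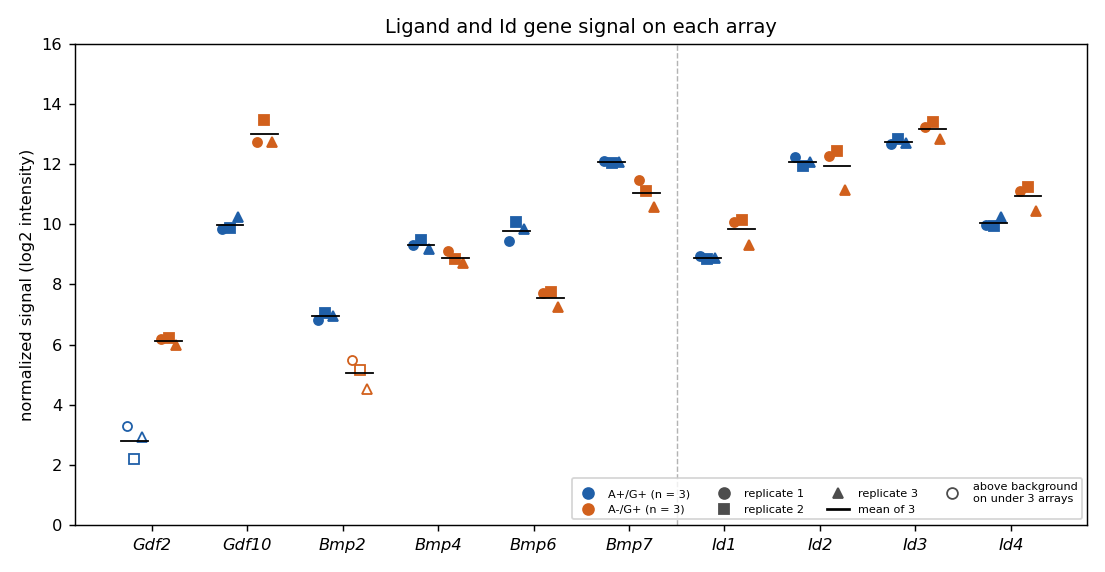
Normalized log2 signal (vertical axis) of each gene by its brightest probe on each of the 6 arrays, with blue for A+/G+, orange for A-/G+, the marker shape for the replicate, a black line for the mean of 3 and open markers where the fraction had under 3 arrays above background. The 3 A-/G+ points lie above the A+/G+ points for Gdf2, Gdf10, Id1 and Id4 and below them for Bmp2, Bmp4, Bmp6 and Bmp7, and heights of different genes are not comparable.

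The Gdf10 probe maps to positions 34748161 to 34748220 of chromosome 14 (mm9, as for all probes here). Its log2 signal was 9.83, 9.87 and 10.26 on the A+/G+ arrays and 12.74, 13.48 and 12.75 on the A-/G+ arrays. Every A-/G+ array was thus more than 2 log2 units above the highest A+/G+ array, and the gene was well above background on all 6. The difference was 3.00 (SE 0.255, adjusted p = 0.00745), and the medians were 7.35-fold apart. Leaving out single arrays kept the difference between 2.76 and 3.14 and the adjusted p between 0.0117 and 0.0443.

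Gdf2 was measured at positions 34760077 to 34760136 of the same chromosome. Its log2 signal was 6.18, 6.21 and 5.99 on the A-/G+ arrays, all above background, and 3.28, 2.20 and 2.94 on the A+/G+ arrays, none above background. For a probe without signal in a fraction only a bound can be given, taken from each array's lowest signal of a probe above background. By that bound Gdf2 in A-/G+ exceeded A+/G+ at least 5.87-fold, which holds for the quantile-normalized signals only. The fitted difference was 3.32 (SE 0.296, adjusted p = 0.00817). With normexp background correction it was 1.14 (adjusted p = 0.000802, limma), and Gdf2 then no longer passed the size limit. Gdf2 kept its call by both limits with each array left out, with adjusted p between 0.0148 and 0.0449.

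Bmp6 is a ligand of the same subgroup as Bmp7 that signals through the receptor encoded by Acvr1, and its probe lies on chromosome 13 from 38591479 to 38591538. The signal was 9.46, 10.08 and 9.83 in A+/G+ and 7.70, 7.74 and 7.25 in A-/G+. It was above background on all 6 arrays, and the fractions were well separated. Bmp6 was lower in A-/G+, with a difference of -2.23 (SE 0.219, adjusted p = 0.00986) and medians 4.39-fold apart. Without A+/G+ replicate 3 the difference was -2.21 and the adjusted p was 0.0555. Without A+/G+ replicate 2 the adjusted p was 0.0444 with a difference of -2.08, but the medians were then under 4-fold apart, so that leaving out either array ended the call by both limits.

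Bmp2, which with Bmp4 forms another ligand subgroup, has its probe on chromosome 2 from 133388260 to 133388319. The signal was 6.83, 7.05 and 6.95 in A+/G+, above background on all 3 arrays. In A-/G+ it was 5.50, 5.15 and 4.52, above background on 1 array. All A-/G+ arrays were below all A+/G+ arrays, with a difference of -1.89 (SE 0.268, adjusted p = 0.0214). The medians were 3.49-fold apart, just under the size limit. The call was lost without any 1 of the A+/G+ replicates 1 (adjusted p = 0.0787), 2 (0.0955) and 3 (0.0935) or without A-/G+ replicate 2 (0.0616). Nor did Bmp2 pass in the t-test of the paper's methods (adjusted p = 0.0556). With normexp background correction the difference was -0.95 (adjusted p = 0.00358, limma).

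For Bmp4 and Bmp7 the arrays of the fractions did not overlap, but the differences were smaller. Bmp7, on chromosome 2 from 172695203 to 172695262, had 12.10, 12.05 and 12.09 in A+/G+ and 11.46, 11.10 and 10.57 in A-/G+. The 3 A+/G+ arrays thus lay within 0.05 of each other, whereas the A-/G+ arrays spanned 0.89. The difference was -1.04 (SE 0.236, adjusted p = 0.0647, 95% interval -1.65 to -0.43). It passed the adjusted p in 7 of 16 alternative settings, with -0.80 and an adjusted p of 0.0305 without A-/G+ replicate 3. The brighter probe of Bmp4, on chromosome 14 from 47003391 to 47003450, gave 9.32, 9.49 and 9.17 in A+/G+ and 9.10, 8.84 and 8.73 in A-/G+. The difference was -0.44 (SE 0.136, adjusted p = 0.134, 95% interval -0.79 to -0.09), and it did not pass in any of 16 alternative settings. The other Bmp4 probe, at positions 47003198 to 47003257, was above background on no array.

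**Figure D2:**
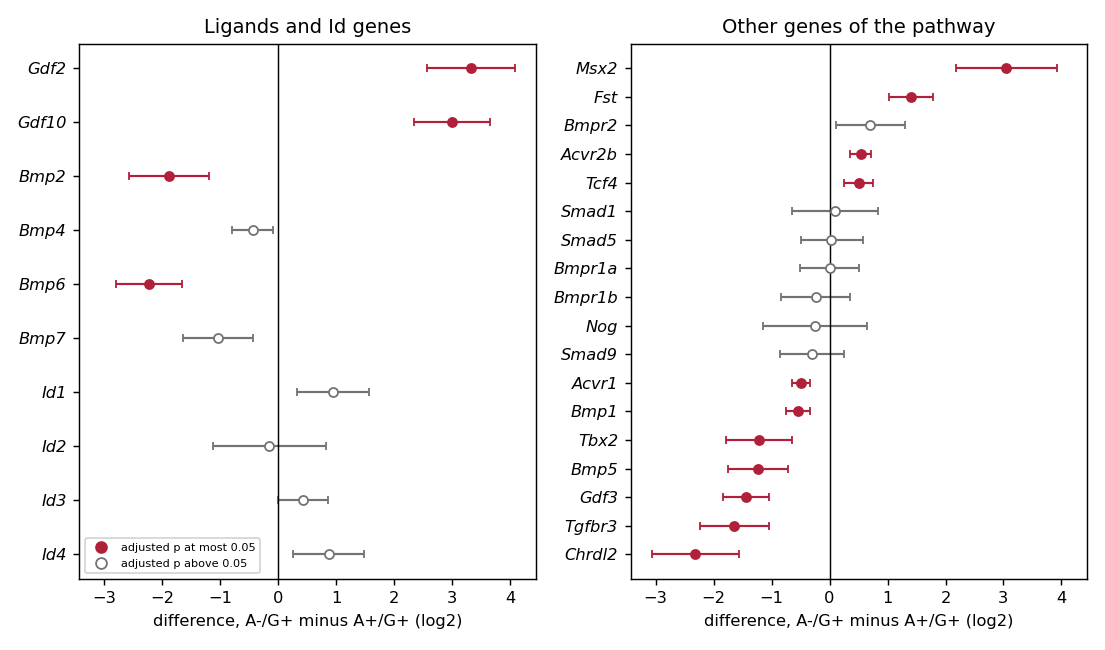
Difference of the fraction means (horizontal axis, A-/G+ minus A+/G+, log2) with its 95% interval from limma, for the ligands and Id genes (left) and for the named genes of the rest of the pathway (right), with red for an adjusted p of at most 0.05. Gdf2 and Gdf10 lie at 3.32 and 3.00, Bmp2 and Bmp6 at -1.89 and -2.23, and all Id genes between -0.15 and 0.95.

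The Id genes had higher means in A-/G+ for Id1, Id3 and Id4 and a slightly lower one for Id2. None of the 4 passed the adjusted p in limma as set out above or in the t-test of the paper's methods. In limma 5.12% of all genes passed as higher in A-/G+ and 7.48% in the other direction. Id1 and Id4 had an unadjusted p under 0.05 (2 of 4), as did 14% of all genes in that direction. The median of their differences was 0.65, beside 0.07 over the 11332 genes above background on all arrays, and all 4 were above background on every array. Id1, on chromosome 2 from 152563083 to 152563142, had 8.94, 8.86 and 8.88 in A+/G+ and 10.07, 10.13 and 9.31 in A-/G+. No A-/G+ array came down to the A+/G+ arrays, and the difference was 0.95 (SE 0.242, adjusted p = 0.0848, 95% interval 0.32 to 1.57). Id4, on chromosome 13 from 48358668 to 48358727, is known from neural precursors and astroglia. It had 9.98, 9.95 and 10.25 in A+/G+ and 11.10, 11.24 and 10.45 in A-/G+. The arrays again did not overlap, with a difference of 0.87 (SE 0.238, adjusted p = 0.0983, 95% interval 0.26 to 1.48). Non-overlap with A-/G+ above, which held for Id1 and Id4, was found for 23.3% of all genes.

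Id3, on chromosome 4 with a probe spanning 135700075 to 135700249, had 12.67, 12.83 and 12.71 in A+/G+ and 13.24, 13.42 and 12.83 in A-/G+. The lowest A-/G+ array reached down to the highest A+/G+ array, and the difference was 0.42 (SE 0.169, adjusted p = 0.229, 95% interval -0.01 to 0.86). Id2, on chromosome 12 from 25778904 to 25778963, had 12.24, 11.94 and 12.07 in A+/G+ and 12.26, 12.43 and 11.13 in A-/G+. Its arrays overlapped fully, with A-/G+ replicates 2 and 3 as the highest and the lowest of all 6. The difference was -0.15 (SE 0.379, adjusted p = 0.833), and its interval from -1.12 to 0.83 leaves room for a change of more than 2-fold down.

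The Id calls depended on 1 array and also on the processing. With all 6 arrays kept, limma called Id1 and Id4 with normexp background correction (adjusted p = 0.0407 and 0.0398). It also called them with a filter on dim probes (adjusted p = 0.0378 and 0.0452). Scaling to the 75th percentile of all spots called Id4 (adjusted p = 0.0498, limma) but not Id1. Id2 and Id3 were called in none of these settings. A-/G+ replicate 3 was the lowest A-/G+ array for all 4 Id genes and for 5 of the 6 ligands (all but Gdf10), as it was for 43.1% of the genes above background on all arrays. Against the mean of A-/G+ replicates 1 and 2, it was lower by a median of 0.76 for the Id genes (a difference of -0.76, from -1.22 for Id2 to -0.50 for Id3). The median was -0.42 for the ligands and -0.04 over all genes above background. Without that array the differences of Id1 (1.21, adjusted p = 0.00518, limma), Id4 (1.11, adjusted p = 0.0158) and Id3 (0.59, adjusted p = 0.029) passed the test. Id2 was then at 0.26 (adjusted p = 0.267), the only member whose direction turned. Leaving out the lowest A-/G+ array raises these differences by construction. With any other single array left out, no Id gene passed in limma. Without A-/G+ replicate 3 the count of members past the adjusted p rose from 4 to 8 of 10. That of the pathway genes read below rose too, from 12 to 18 of 67. The share of all genes called in that fit is not given here, so the rise cannot be read as particular to the members. Replicate 3 was the brightest A-/G+ array, with a 75th percentile of the intensity of 251 against 56.6 and 113 on replicates 1 and 2. It had 24730 probes above background against 18336 and 21412, nearest to the A+/G+ arrays. The Id calls without it thus rest on the dimmer A-/G+ arrays. Summed signals of marker genes (normalized intensity) also set replicate 3 apart from A-/G+ replicates 1 and 2. It had the highest sum for endothelial (7890 against 1550 and 1810), oligodendrocyte lineage (4260 against 2430 and 2260), ependymal (1320 against 799 and 341), pericyte (932 against 363 and 429) and, by little, microglial genes (634 against 622 and 493). It had the lowest sum for meningeal (12600 against 35500 and 25300), astrocyte (64400 against 80400 and 93900), Bergmann and radial glia (93900 against 127000 and 157000), neurogenic progenitor (3350 against 4170 and 4920) and granule neuron genes (24200 against 30700 and 28400). A sum is weighted to its brightest gene, which for Bergmann and radial glia was Fabp7, with a difference of -0.06 between the fractions. For granule neuron genes it was Zic1, which like Pax6 was lowest on replicate 3. The log2 signals of Atoh1 (8.45 against 6.92 and 6.53), Barhl1 (10.74 against 8.33 and 8.56) and Neurod1 (9.37 against 7.67 and 6.67) were instead highest on replicate 3. The part of these cells in the Id values was not tested.

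**Figure D3:**
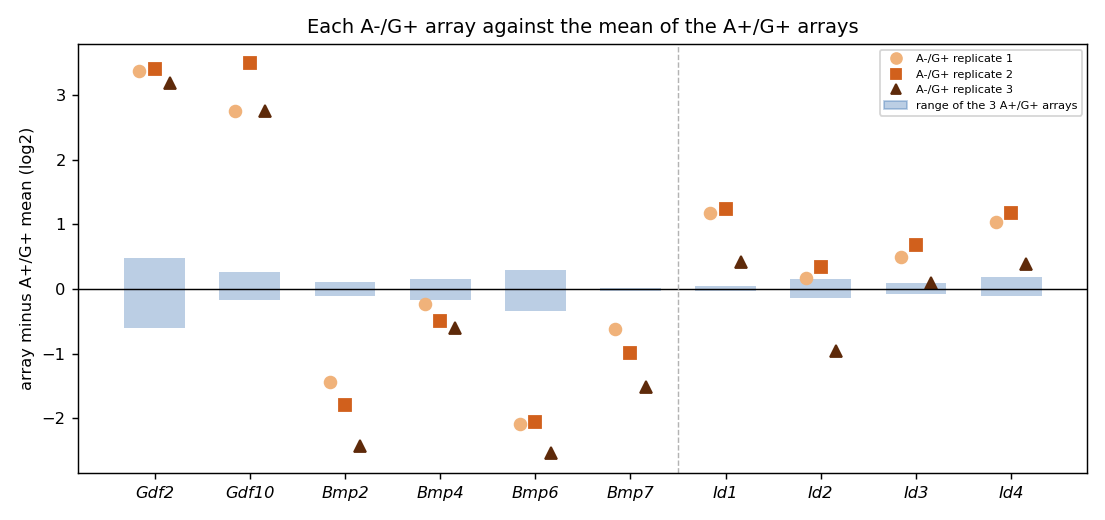
Signal of each A-/G+ array minus the mean of the 3 A+/G+ arrays (vertical axis, log2), by gene and replicate, with the blue band for the range of the A+/G+ arrays. The dark triangles of replicate 3 are the lowest of the 3 points for every gene but Gdf10, and for Id2 the triangle lies at -0.96 while the other replicates lie above the line at 0.

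The rest of the pathway was read from 67 genes, all on the array, of which 31 were above background on every array and 10 on none. Of these, 4 passed the adjusted p as higher in A-/G+ and 8 as higher in A+/G+, where the shares over all genes were 5.12% and 7.48%, and the counts by role that follow stand against the same shares. The median over the 67 was -0.15. Scaling each array to its 75th percentile over all spots gave 9 and 5 in place of 4 and 8. Over all 55681 probes that scaling called 17203 and 2369 in place of 2583 and 2589, so that the shares above do not apply to it. Leaving out single arrays gave 2 to 18 in all, with 4, 3 and 2 without A+/G+ replicates 1, 2 and 3.

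Among 19 secreted antagonists and modulators, 1 was higher in A-/G+ and 3 were higher in A+/G+. Fst, which encodes follistatin, a trap for activins and some BMPs, had 5.66, 6.02 and 5.76 in A+/G+ and 7.33, 7.34 and 7.00 in A-/G+, with a difference of 1.41 (SE 0.146, adjusted p = 0.0112). Chrdl2, a chordin-like antagonist, was above background on the A+/G+ arrays only, with means of 4.77 and 2.45 (adjusted p = 0.0164). Its signal in A+/G+ was too near the lowest detectable signal of the A-/G+ arrays for a bound on the fold. Bmp1, which despite its name is a protease that cleaves procollagen and chordin, was lower in A-/G+ by 0.54 (difference -0.54, SE 0.0818, adjusted p = 0.0247). Its other probes, above background on all arrays, gave -0.86 (adjusted p = 0.0123) and -0.32 (adjusted p = 0.464). Nog, which encodes noggin, was at -0.25 (SE 0.348, adjusted p = 0.678) with overlapping arrays.

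Receptor differences that passed the test were under 2-fold. Of 7 receptors, Acvr2b (type II) was higher in A-/G+ by 0.54 (SE 0.0707, adjusted p = 0.0183), and Acvr1 (type I) was lower, at -0.49 (SE 0.0615, adjusted p = 0.0163). Another Acvr1 probe above background on all arrays was at -0.40 without passing (adjusted p = 0.167), and the remaining probe was above background on no array. Bmpr1a was at 0.00 (SE 0.195, adjusted p = 0.993, 95% interval -0.51 to 0.50). Bmpr2 was at 0.70 (SE 0.230, adjusted p = 0.151). The probes of Bmpr1b disagreed, with -0.24 (adjusted p = 0.578) for the brighter one and -0.91 (adjusted p = 0.0459) for the other. None of 6 Smad genes passed in limma or in the methods' t-test (1 had an unadjusted p under 0.05), and the intracellular mediators Smad1, Smad5 and Smad9 were at 0.09, 0.03 and -0.31 with overlapping arrays. For Smad5 the 95% interval ran from -0.50 to 0.57. Acvrl1 and Eng, named here after their values were seen because their products bind Gdf2 on endothelium, were at -1.45 (adjusted p = 0.114) and -1.19 (adjusted p = 0.336). Among 7 co-receptors and the pseudoreceptor, Tgfbr3 (betaglycan) was lower in A-/G+, at -1.64 (SE 0.232, adjusted p = 0.0212).

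Of 15 other BMP and GDF ligands, 2 were higher in A+/G+ and none in A-/G+, where 1 had an unadjusted p under 0.05 in limma and the methods' t-test called none. Bmp5, of the subgroup of Bmp6 and Bmp7, had 5.74, 5.92 and 5.58 in A+/G+ and 4.86, 4.49 and 4.18 in A-/G+, where it was above background on 1 array, with a difference of -1.24 (SE 0.204, adjusted p = 0.0304). Gdf3 was at -1.44 (adjusted p = 0.012) but was above background on a single A+/G+ array, and its other probe was at -0.65 (adjusted p = 0.197).

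Among 10 other genes known to respond to BMPs, 1 was higher in each fraction. Msx2, a homeobox gene and a classical BMP target, had 8.30, 8.57 and 8.90 in A+/G+ and 11.81, 12.11 and 11.01 in A-/G+. The fractions were far apart, with a difference of 3.05 (SE 0.336, adjusted p = 0.0124) and medians 9.43-fold apart, and A-/G+ replicate 3 was again the lowest A-/G+ array. Tbx2, a T-box gene, was lower in A-/G+, at -1.21 (SE 0.218, adjusted p = 0.0373), and was above background there on 1 array. Of the 3 E protein genes, whose products Id proteins bind, all had higher means in A-/G+ and Tcf4 passed the adjusted p, with 0.50 (SE 0.0957, adjusted p = 0.0425) and 0.82 (adjusted p = 0.0387) for its other probe.

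Because Gdf10 and Gdf2 lie side by side, the probes around them were examined. Their probes start 11916 bases apart on mm9, and the RefSeq annotation of GRCm38.p6 has 0 genes between them. The array held 15 probes within 250 kb of the Gdf10 probe, all at or downstream of it, and Gdf10 and Gdf2 were the only 2 past the adjusted p. Rbp3, the next gene, which encodes a retinoid-binding protein of the retina, had 8.16, 8.30 and 8.28 in A+/G+ and 9.49, 8.85 and 7.12 in A-/G+. Its A-/G+ arrays lay on both sides of the A+/G+ arrays, and the difference was 0.24 (SE 0.639, adjusted p = 0.839, 95% interval -1.41 to 1.89). Zfp488 gave 1.27 (adjusted p = 0.3) and -1.32 (adjusted p = 0.346) with its 2 probes. Anxa8 gave -3.26 (adjusted p = 0.0665) and -0.93 (adjusted p = 0.561). The probes of Gm5460, A630023A22Rik, Antxrl, AI552925, Npy4r and of 2 features without a gene symbol were above background on no array.

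**Figure D4:**
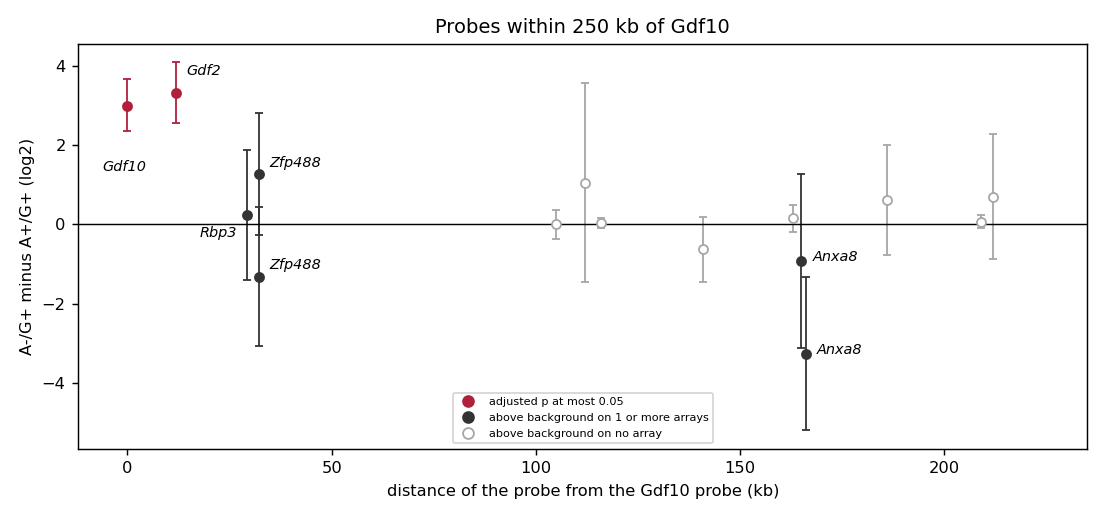
Difference of the fraction means (vertical axis, A-/G+ minus A+/G+, log2) with its 95% interval for the 15 probes within 250 kb of the Gdf10 probe, by distance from it in kb, with open gray markers for probes above background on no array. Gdf10 at 0 kb and Gdf2 at 11.9 kb lie at 3.00 and 3.32, and the intervals of Rbp3 and Zfp488, the next probes, cross 0.

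The genes with the pattern most like that of Gdf10 were found by the root mean square distance between centered log2 profiles over the 6 arrays, among 11331 other genes above background on all of them. The nearest 5 were Pcdh20 (distance 0.153), Kirrel2 (0.168), Myh8 (0.182), 0610040J01Rik (0.201) and Ass1 (0.206). Pcdh20, which encodes a protocadherin and like Gdf10 lies on chromosome 14, had 6.10, 6.40 and 6.79 in A+/G+ and 9.23, 9.61 and 9.05 in A-/G+. Kirrel2, which encodes an adhesion protein and is one of the neurogenic progenitor markers used here, had 7.31, 7.65 and 8.04 in A+/G+ and 10.64, 10.95 and 10.29 in A-/G+. The likeness describes 6 arrays and carries no test.

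Markers of other cell types moved with the fractions, and their counts stand against 5.12% of all genes called higher in A-/G+ and 7.48% called higher in A+/G+. Beside the higher Gdf10, 7 of 8 Bergmann and radial glia genes had higher means in A-/G+ and 6 passed the adjusted p, and 3 of 4 neurogenic progenitor genes passed in the same direction. From these same arrays the paper had already named Gria1, Npy, Mybpc1, Wif1, Ptf1a and Kirrel2 for A-/G+, and the astrocyte gene Slc6a11 for A+/G+. Slc1a3 encodes a sorted antigen. For these genes the shares of all genes are no independent measure. Beside the lower Bmp2 and Bmp6, all 6 meningeal fibroblast genes had non-overlapping fractions with A+/G+ above, which 19.1% of all genes had, and 2 passed the adjusted p. Their summed signal was 66200 to 80000 in A+/G+ and 35500, 25300 and 12600 on A-/G+ replicates 1, 2 and 3. Summed pericyte and smooth muscle signal (5 genes, 2 past the adjusted p) was 2330 to 2560 in A+/G+ and 363 to 932 in A-/G+. All 7 endothelial genes had lower means in A-/G+, with 1 past the adjusted p. Of 8 astrocyte genes, 5 were higher in A+/G+ and 1 was higher in A-/G+. Oligodendrocyte lineage (3 of 7 genes), Purkinje cell (4 of 5) and ependymal genes (4 of 5) were also higher in A+/G+, with 1 oligodendrocyte lineage gene higher in A-/G+. Of 5 granule neuron lineage genes 1 was higher in A-/G+. For choroid plexus (5 genes) and microglia (6 genes) 0 passed in limma or in the methods' t-test, with 0 and 1 at an unadjusted p under 0.05, and summed choroid plexus signal was 24300 to 38200 in A+/G+ and 23200 to 55400 in A-/G+. The Purkinje markers Calb1, Foxp2 and Car8 and the cilia gene Dnah5 were above background on no A-/G+ array, and Neurog1 and Ptprc on no array at all. In every list other markers were above background in both fractions, and the part of these cells in the ligand and Id values was not tested.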

How the data were processed

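Gene expression was measured in 6 samples, 3 A+/G+ and 3 A-/G+, grouped by their labels, with 1-color Agilent arrays. For each array the authors deposited background-corrected spot intensities from the scanner software (Feature Extraction 10.7.3.1, with probe positions on mm9) and its flags for signal above background and outliers. They also deposited a table of log2 values, quantile normalized per their methods and used here as an alternative.

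Here log2 intensities of 59305 non-control spots per array, without spots marked as outliers, were quantile normalized, and spots of 1 probe were averaged. No filter on dim probes was applied. limma 3.58.1 in R 4.3.3 compared the fractions over 55681 probes. A gene was read from its probe with the highest mean signal. The number of arrays limits the precision.

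Named are all members with all probes, the pathway genes past the adjusted p up to 12, 7 core pathway genes, genes within 250 kb of Gdf10, the 5 genes most like Gdf10, and both sorted antigens. The members and gene lists were chosen with earlier results of these data known. 1 pathway gene past the adjusted p is counted but not reported here. Of 148 listed genes, 144 had an accession that RefSeq gives the same symbol.

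The fit was tested on simulated data. Of 50 probes each changed by 1, 2, 3 and -3 on the log2 scale among 55660, limma called 26, 46, 50 and 60%, with 10 false calls in all. Far more probes, 5172, passed in the data, where the adjustment was therefore less strict. These percentages are thus not the power of the fit to the data. Alternatives were other scalings, normexp background correction (offset 50), a filter on dim probes, other tests and variance models, other size limits, the mean of a gene's probes, leaving out single arrays and a block for the replicate number. Single cell, staining and grafting data were not analysed here.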

Additional observations from a re-analysis of the deposited data

How the results depend on the processing

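The count of members past both limits was 3 and stayed between 2 and 4 in all alternatives except the replicate block, and between 2 and 4 with single arrays left out. It was 2 with normexp background correction, where Gdf2 no longer passed the size limit. The count past the adjusted p was 4, and was 7 with normexp background correction, 7 with a filter on dim probes and 2 to 8 with single arrays left out. Bmp7, Id1 and Id4 were the members added by normexp and by the filter. Over all probes normexp called 3567 for A-/G+ and 3511 for A+/G+, against 2583 and 2589 without it, so that calls rose beyond the members. Counts over all probes with the filter or with single arrays left out are not given here. The count of pathway genes was 12, and was 5 when arrays were scaled to the 75th percentile of the probes above background on all arrays and 2 to 18 with single arrays left out. Around Gdf10 and Gdf2, where the alternatives were chosen after seeing the data, 2 probes passed, 6 did with the 75th percentile of all spots and 2 to 4 with single arrays left out. Id2 turned from -0.15 to 0.26 without A-/G+ replicate 3 and ranged from -0.39 to 0.26 with single arrays left out. The cause was not tested, beyond the fact that a filter tests fewer probes. Scaling to the 75th percentile of all spots moved the median difference of all probes by 0.98, with 17203 probes called for A-/G+ and 2369 for A+/G+ against 2583 and 2589 by quantile normalization, and 1623 and 1103 with the percentile of probes above background. No member changed direction under these scalings.

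Whether the shared replicate numbers pair the samples is unclear, since 2 of 3 same-numbered pairs had deviations that correlated above 0.1 and 2 of 6 samples correlated best with their own number. They were therefore not paired in the results above. With the replicate block limma called 0 members by the adjusted p and so 0 by both limits, 0 pathway genes and 0 probes around Gdf10 (0 of 55681 probes overall). The differences stayed at 3.32 for Gdf2, 3.00 for Gdf10, -2.23 for Bmp6 and -1.89 for Bmp2, with adjusted p of 0.0717, 0.0726, 0.0737 and 0.0992. The counts in the same order were 7, 24, 3 and 11671 at an unadjusted p of at most 0.05, against 8, 28, 3 and 12974 without it. The methods' t-test called 3 members (Gdf2, Gdf10 and Bmp6, not Bmp2), 8 pathway genes and 2 of those probes. No slide held both fractions, and a slide block was therefore not run. Dim A-/G+ arrays limit what can be read for Bmp2, Bmp5, Tbx2 and Chrdl2, and Gdf2 has only an approximate bound in A+/G+.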
